A study of Bos taurus with 92 samples.

Results

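The cytosolic ribosome is built from a large and a small subunit, each a scaffold of ribosomal RNA carrying a set of ribosomal proteins. The small subunit reads the mRNA and the large subunit joins the amino acids. In mammals most ribosomal protein mRNAs carry a terminal oligopyrimidine (TOP) tract at the 5′ end, through which their translation follows growth signals, and embryos depend on new ribosome synthesis after the supply laid down in the oocyte. The genes described here are those of the cytosolic ribosomal proteins, taken as every gene whose symbol, as the only symbol of a probe in the platform annotation, follows the RPL, RPS or RPLP pattern or is RPSA, with the ribosome-like RPL7L1 and the RPS6 kinases left out. The rule matched 46 genes of the 4452 named on the array, 29 of the large and 17 of the small subunit, on 56 probes. Of these, 44 genes on 54 probes could be tested, 28 of the large and 16 of the small subunit. RPL5 and RPS12 were not tested, because a value was present in only 6 IVF and 6 NT embryos for RPL5 and in 5 IVF and 7 NT embryos for RPS12. RPLP0 and RPSA had no probe with a single symbol and were not analysed here.

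Expression had been profiled in single bovine blastocysts, the stage at which an outer trophectoderm encloses an inner cell mass, on a custom 2-colour cDNA microarray. The labels gave 14 blastocysts from artificial insemination (AI), 15 from in vitro fertilisation (IVF), 15 from nuclear transfer (NT), in which an oocyte receives the nucleus of a somatic donor cell, and 2 samples of NT donor cells. Each sample was hybridised against one reference RNA on 2 arrays, in Cy5 on one and in Cy3 on the other, which made 92 arrays, and the study's title asks about nuclear reprogramming. All samples were amplified linearly before labelling, the embryos and donor cells by more rounds than the reference. Breed, embryo age, culture medium, oocyte source and donor cell type were not given in the sources used here. Among the AI embryos 3 had numbers beginning with H, and among the NT embryos 8 had numbers beginning with 2_ and 7 with 3_, with no explanation. No hybridisation date or batch was given, so a batch and the kind of embryo cannot be told apart.

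Values are log2 ratios of sample over reference, each array centred on its median over all probes, so that a difference between groups is relative to the median transcript on the array. In single embryos measured in bulk, fewer cells of a type and less RNA per cell cannot be told apart. That the deposited ratio is Cy5 over Cy3 is likely and not certain. Read so, donor cells exceeded each kind of embryo in 12 to 13 of 19 markers of fibroblasts and matrix and fell short in 14 to 16 of 21 trophectoderm markers, while the opposite reading would turn every sign below. The mean log2 ratio of the 21 trophectoderm genes ran from 1.73 to 2.47 in AI, 1.60 to 2.18 in IVF and 1.10 to 2.10 in NT embryos, and was -0.32 and -0.084 in the donor cell samples, so that the embryos carried the markers of the outer layer. The 19 fibroblast and matrix genes averaged -1.84 to -1.31 in embryos, with overlap of all 3 kinds, and 0.75 and 0.76 in donor cells. The 3 inner cell mass genes measured averaged from -0.14 to 1.24 in embryos and 1.36 and 1.70 in donor cells, and between NT and AI embryos 0 of them were called (0 unadjusted). Between IVF and AI 1 of these 3 was lower and 1 higher with a median of -0.40, and between NT and IVF 2 were higher and 1 lower in NT with a median of 0.69; their part in the ribosomal protein differences was not tested. Of 4 primitive endoderm genes 1 rose and 1 fell in NT relative to AI, and of 2 oocyte and cumulus genes 0 were called (0 unadjusted). Once Cy3 arrays were turned in sign, both arrays of a sample correlated with r of 0.548 to 0.764 over probes in embryos, but with r of 0.248 and 0.325 in the donor cell samples. Missing spots made up 0.664% of the member spots.

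Relative to the median gene, ribosomal protein transcripts of both subunits were lower in IVF and in NT blastocysts than in AI blastocysts. A gene is called here when its adjusted p from limma (Benjamini-Hochberg over the 4398 genes tested) is below 0.05. Between NT and AI embryos 8.07% of all genes tested were called, 3.80% higher and 4.27% lower in NT. Of the 28 large subunit genes 16 were lower in NT, and of the 16 small subunit genes 8 were, with 0 higher in either subunit (0 also at an unadjusted p below 0.05). The median difference was -0.42 for the large and -0.40 for the small subunit, against 0.026 for all genes, when arrays were centred, but -0.0048 and 0.018, against 0.44 for all genes, with arrays as deposited. Between IVF and AI embryos 29.5% of all genes were called, 13.9% higher and 15.6% lower in IVF. There 18 large and 10 small subunit genes were lower in IVF, 0 large subunit genes were higher (0 also unadjusted), and 1 small subunit gene, RPS9, was higher. The medians were -0.39 for the large and -0.35 for the small subunit, against 0.026 for all genes. Both comparisons use the same AI embryos.

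Averages over each subunit's genes, taken embryo by embryo, show how far the groups overlapped. Set against the AI mean, the large subunit average ran from -0.28 to 0.46 in AI, from -0.73 to -0.20 in IVF and from -0.63 to -0.048 in NT embryos. The small subunit average ran from -0.29 to 0.32 in AI, from -0.67 to -0.17 in IVF and from -0.57 to -0.11 in NT embryos. The ranges overlapped, yet 14 of 15 IVF and 11 of 15 NT embryos lay below the lowest AI embryo for the large subunit, and 12 IVF and 13 NT embryos for the small subunit. AI embryo 7 was the highest of its group in both subunits at 0.46 and 0.32, and AI embryos 15 and 16 were the lowest of theirs in both. The large minus the small subunit average of an embryo had an SD of 0.093 within kinds of embryo, and its group mean, relative to AI, was -0.10 in IVF and -0.022 in NT embryos. Without RPS9, which has 1 probe, the small subunit means were -0.42 in IVF and -0.41 in NT embryos, close to the large subunit means of -0.46 and -0.40. No test was run on these averages, since the members were chosen with results of these data known. The 3 AI embryos with H numbers gave large subunit averages of -0.10, 0.12 and -0.15, within the range of the other AI embryos.

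**Figure D1:**
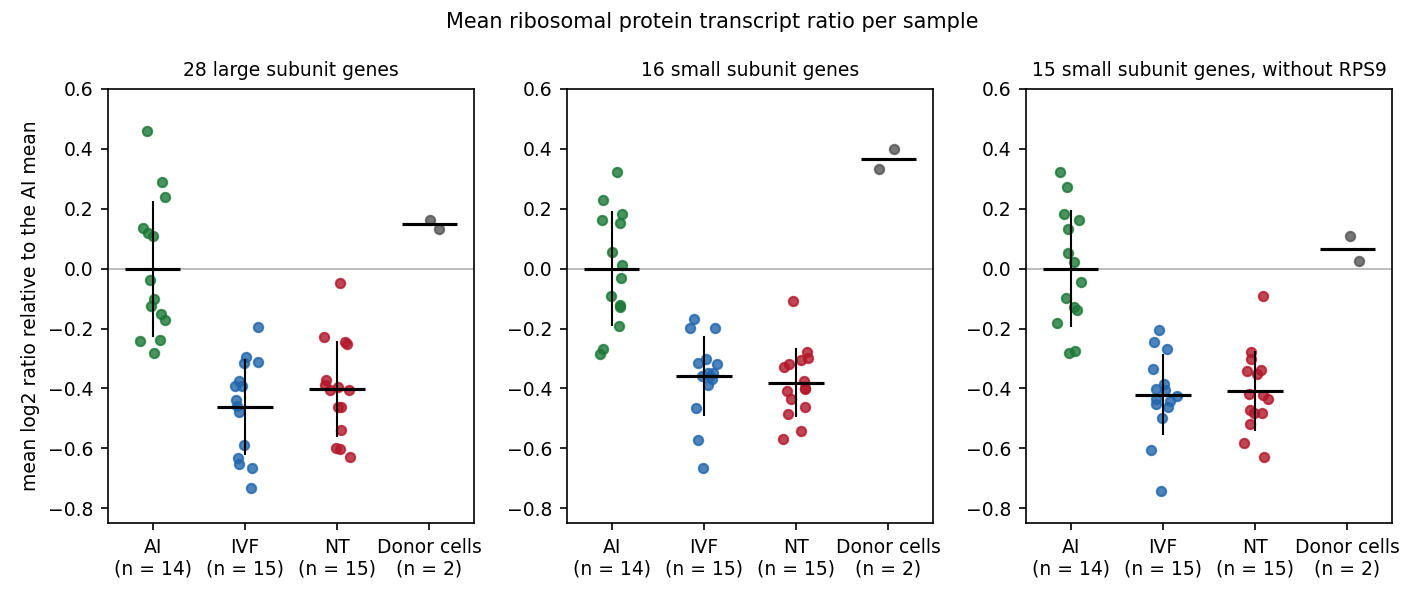
Each point is 1 sample's mean log2 ratio over the large subunit genes, the small subunit genes, or the small subunit genes without RPS9, on centred arrays and relative to the mean of the AI embryos (y axis), by group (x axis, with n). Horizontal bars are group means and vertical bars 1 SD. IVF means of -0.46 and -0.36 and NT means of -0.40 and -0.38 lie below the AI mean, and both donor cell samples lie above it; the NT medians against AI were -0.0048 and 0.018 as deposited, and the AI median against donor cells turned to 0.21 in Cy3 alone.

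Among the large subunit genes the stalk protein RPLP1, one of the acidic proteins that recruit translation factors to the ribosome, separated NT from AI embryos with the smallest p-value. RPLP1 log2 ratios ran from 0.010 to 0.74 with a median of 0.37 in AI and from -1.02 to 0.22 with a median of -0.58 in NT embryos. Most NT embryos lay below the lowest AI embryo, although the ranges overlapped. The difference was -0.90 ± 0.11 (SE, here and below), or 1.87-fold lower, with an adjusted p of 6.95e-07 by limma, and 15 of 15 NT embryos lay below the AI mean. RPLP2, its stalk partner, ran from -0.61 to 0.74 with a median of 0.16 in AI and from -0.99 to 0.20 with a median of -0.34 in NT embryos. Its groups overlapped widely and the difference was -0.48 ± 0.14 (adjusted p = 0.0206 by limma). The RPLP2 call was lost in Cy3 alone (-0.30, 0.362), as deposited (-0.062, 0.78) and with the 3_ embryos alone (-0.36, 0.243). RPL35A, a large subunit protein mutated in some patients with Diamond-Blackfan anaemia, fell by 0.95 ± 0.14 (adjusted p = 7.83e-06), from a range of -0.20 to 0.97 with a median of 0.043 in AI to one of -1.24 to 0.0047 with a median of -0.81 in NT embryos. These ranges overlapped at their ends only, and 15 of 15 NT embryos lay below the AI mean. RPL6, RPL27 and RPL23, 3 further structural proteins of the subunit, differed by -0.62 ± 0.12 (adjusted p = 3.69e-04), -0.58 ± 0.11 (4.50e-04) and -0.54 ± 0.12 (0.00166). RPL6 ran from -0.20 to 0.71 with a median of 0.29 in AI and from -0.69 to 0.41 with a median of -0.34 in NT embryos, with an overlap of the groups. RPL27 ran from -0.71 to 0.28 with a median of -0.38 and from -1.37 to -0.37 with a median of -0.82, and RPL23 from 0.28 to 1.11 with a median of 0.58 and from -0.63 to 0.51 with a median of 0.16. Each of these groups overlapped, and 15 of 15 NT embryos lay below the AI mean for RPL27 and 15 of 15 for RPL23. The other 10 large subunit genes called had differences between -0.57 (RPL18) and -0.31 (RPL35). Of the 12 not called, 11 had negative differences and RPL39, which lines the exit tunnel for the new peptide, had 0.052 ± 0.15.

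Among the small subunit genes RPS10 gave the smallest p-value between NT and AI embryos, with values of -0.76 to 0.11 with a median of -0.33 in AI and -1.16 to -0.62 with a median of -0.94 in NT embryos. It was the member with the tightest groups of its subunit, all NT embryos lay below the AI mean, and the difference was -0.55 ± 0.085 (adjusted p = 2.34e-05). RPS18, a protein of the head of the small subunit, had the largest difference of the 16 at -0.82 ± 0.14 (adjusted p = 1.18e-04), or 1.76-fold lower. RPS18 ran from -0.92 to 0.30 with a median of -0.31 in AI and from -1.64 to -0.21 with a median of -1.06 in NT embryos, so that the groups overlapped and 14 of 15 NT embryos lay below the AI mean. RPS3, which lies at the mRNA entry channel and also acts in DNA repair, ran from 0.71 to 1.74 with a median of 1.26 in AI and from 0.14 to 1.30 with a median of 0.59 in NT embryos. Of the NT embryos 1 reached the AI median, and the difference was -0.63 ± 0.12 (adjusted p = 4.55e-04). RPS7, like RPS10 a Diamond-Blackfan anaemia gene, differed by -0.63 ± 0.11 (1.15e-04) between ranges of -0.94 to -0.16 with a median of -0.61 in AI and -1.71 to -0.51 with a median of -1.29 in NT embryos. RPS14, whose loss marks a form of myelodysplasia, differed by -0.64 ± 0.13 (0.00109) between ranges of -0.73 to 0.51 with a median of -0.26 and -1.30 to -0.34 with a median of -0.88. Both pairs of groups overlapped. RPS20, RPS24 and RPS25 were also called, at -0.40, -0.31 and -0.45. Neither of the 2 RPS24 probes was called by itself (adjusted p = 0.0743 and 0.124 by limma). The RPS24 call was also lost with either dye alone, with 1 probe per gene and with either the 2_ or the 3_ embryos alone. RPS9 was the 1 small subunit gene with a positive difference, 0.041 ± 0.15 (adjusted p = 0.917).

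With arrays as deposited 2 members were called lower in NT than in AI embryos, RPLP1 and RPL35A, and 2 higher. Among all 4398 genes 19 were then lower and 1978 higher. The median array as deposited, turned so that the sample is the numerator, stood at -0.46 in AI, -0.18 in IVF and 0.029 in NT embryos. The RPS10 call was lost as deposited (-0.13, adjusted p = 0.48) and in Cy3 alone (-0.30, 0.0954), and those of RPS7 (-0.33) and RPL23 (-0.33) also in Cy3 alone. Centring removes this offset for all genes alike. No member's NT values lay wholly below its AI values (0.0455% of all genes did). The count of members lower in NT was 25 with the sample in Cy5 alone and 12 in Cy3 alone, and 20 for NT embryos numbered 2_ and 9 for those numbered 3_. Among all genes 314 of 4437, 82 of 4434, 107 of 4399 and 91 of 4396 were lower in these settings, in the same order. The trophectoderm markers moved with the members in NT embryos, where 4 of 21 were called lower and 0 higher (1 unadjusted), while 4 were higher and 5 lower in IVF than in AI embryos. Their part in the ribosomal protein differences was not tested.

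**Figure D2:**
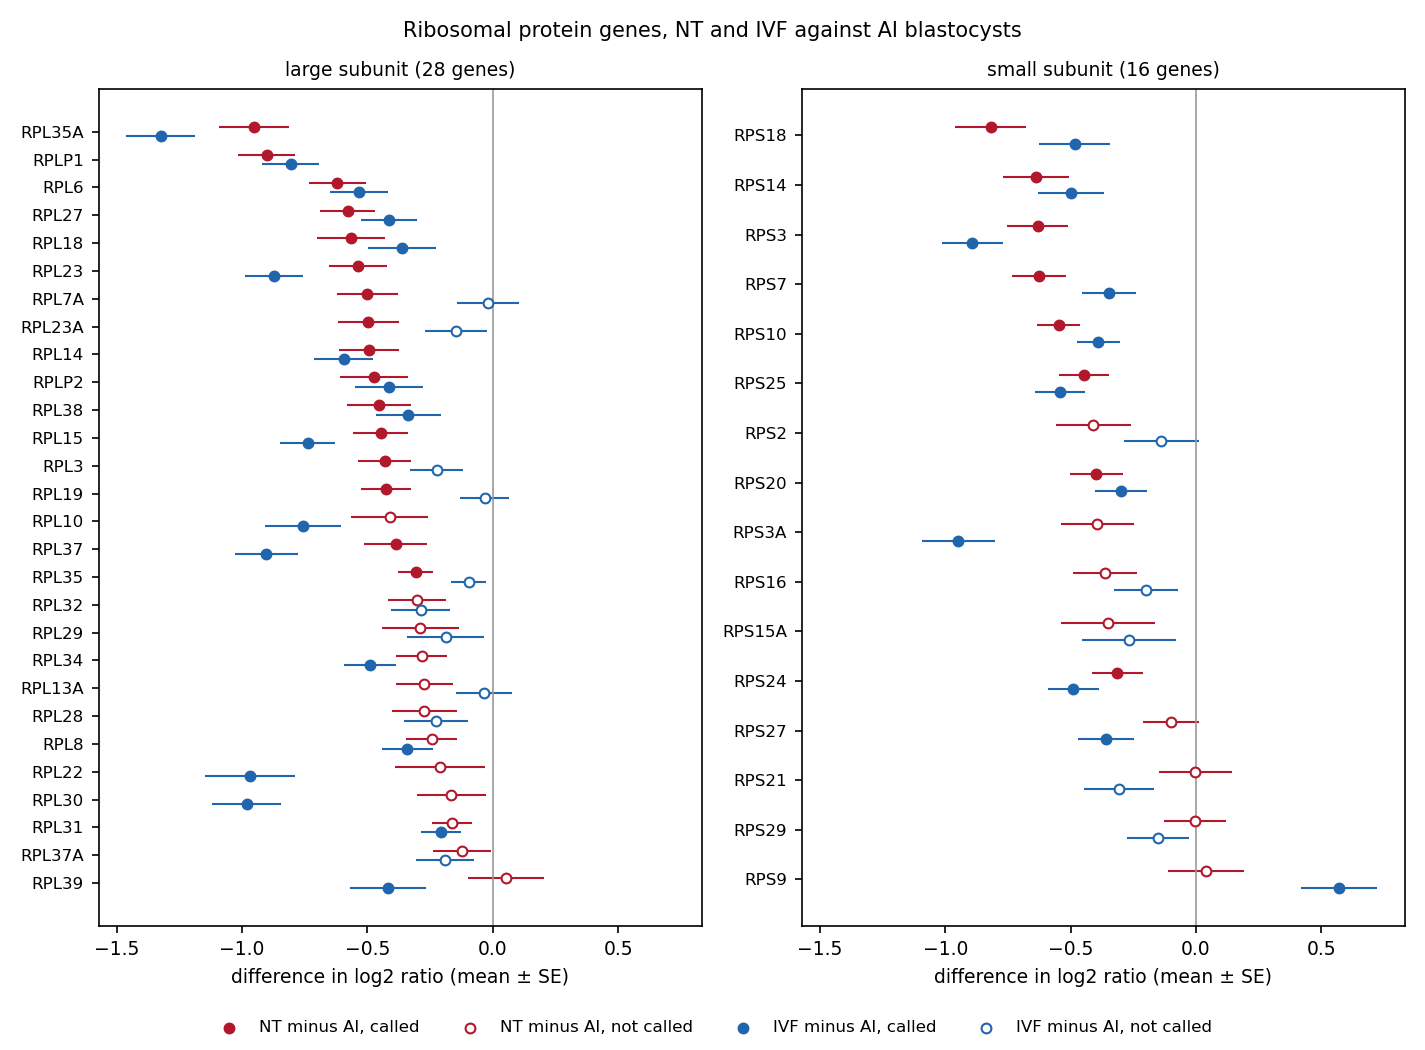
Difference in centred log2 ratio (x axis, ± SE) from AI embryos for each of 28 large and 16 small subunit genes (y axis, in order of the NT difference), in red for NT and in blue for IVF. Filled points were called by limma. With 2 NT exceptions, RPL39 and RPS9, and 1 IVF exception, RPS9, all points lie left of 0; as deposited the median NT difference was 0.010.

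Between IVF and AI embryos RPL35A led the large subunit. RPL35A ran from -1.84 to -0.45 with a median of -1.07 in IVF embryos, so that the highest IVF embryo lay below the lowest AI embryo. Its difference of -1.33 ± 0.14 (adjusted p = 7.09e-10), or 2.51-fold lower, was the largest of any member between kinds of embryo. RPL23, a protein of the face between the subunits, ran from -0.94 to 0.16 with a median of -0.22 in IVF embryos and was also wholly below the AI range, at -0.87 ± 0.12 (1.46e-07). Among all genes 0.432% were wholly lower and 0.0455% wholly higher in IVF than in AI embryos. RPL30 ran from -1.06 to 0.24 with a median of -0.59 in AI and from -2.39 to -0.75 with a median of -1.43 in IVF embryos, an overlap of the ends, with a difference of -0.98 ± 0.14 (4.67e-07). RPL37 differed by -0.90 ± 0.13 (4.17e-07), from -1.47 to -0.28 with a median of -0.86 in AI to -2.49 to -1.12 with a median of -1.78 in IVF embryos. RPLP1 differed by -0.81 ± 0.11 (4.72e-07) and ran from -0.79 to 0.14 with a median of -0.44 in IVF embryos, again overlapping AI at the ends. Its partner RPLP2 ran from -0.98 to 0.47 with a median of -0.34 and differed by -0.41 ± 0.14 (0.0174). This RPLP2 call was lost in Cy3 alone (-0.21, adjusted p = 0.407 by limma) and as deposited (-0.38, 0.142).

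In the small subunit RPS3A, a protein near the mRNA exit, and RPS3 had the largest differences between IVF and AI embryos, at -0.95 ± 0.15 (adjusted p = 2.51e-06) and -0.89 ± 0.12 (2.54e-07). RPS3A ran from -0.53 to 0.65 with a median of 0.13 in AI and from -1.79 to -0.21 with a median of -0.83 in IVF embryos. RPS3 ran from -0.23 to 0.93 with a median of 0.45 in IVF embryos. All 15 IVF embryos lay below the AI mean for both genes, and the ranges overlapped. RPS25 (used by some viral internal ribosome entry sites), RPS24 and RPS10 differed by -0.54 ± 0.099 (4.12e-05), -0.49 ± 0.10 (2.58e-04) and -0.39 ± 0.085 (4.43e-04). RPS25 ran from -0.72 to 0.20 with a median of -0.23 in AI and from -1.43 to -0.33 with a median of -0.78 in IVF embryos. RPS24 ran from -0.90 to 0.0079 with a median of -0.57 and from -1.60 to -0.34 with a median of -1.0, and RPS10 from -1.29 to -0.46 with a median of -0.74 in IVF embryos, so that each pair overlapped. RPS9, which contacts the mRNA entry channel, was the 1 member higher in IVF, by 0.57 ± 0.15 (0.00344), with 12 of 15 IVF embryos above the AI mean. It ran from -3.59 to -2.71 with a median of -3.19 in AI, from -3.86 to -1.45 with a median of -2.72 in IVF and from -3.59 to -2.56 with a median of -3.18 in NT embryos, with the IVF group the widest. The RPS9 call was lost with quantile normalisation and with the sample in Cy3 alone. The count of members lower in IVF was 31 with the sample in Cy5 alone, 13 in Cy3 alone and 15 as deposited. Among all genes 700 of 4437, 544 of 4434 and 354 of 4398 were lower in the same order. The RPS10 difference from AI was -0.13 (adjusted p = 0.404 by limma) in Cy3 alone. That of RPS25 was -0.26 (0.122) in Cy3 alone and -0.82 in Cy5 alone, so that both calls were lost in Cy3 alone.

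Set side by side, 19 members (11 large, 8 small) were called lower than AI in both NT and IVF embryos, 5 in NT alone and 9 in IVF alone, and 11 were lower in neither, counts that rest on a shared AI group. At most 4.27% of all genes, the share called lower in NT, can be lower in both. The shares of all genes lower in NT alone and in IVF alone were not counted. The direct comparison of NT with IVF embryos tests the difference. There 24.2% of all genes were called, 13.9% higher and 10.3% lower in NT, and of the members 8 were higher (7 large, 1 small) and 6 lower (4 large, 2 small). The share of members called in each direction is thus close to that of all genes. No member's NT and IVF values were wholly apart (0.250% of all genes were wholly higher in NT and 0.0455% wholly lower). The medians were -0.030 for the large and -0.092 for the small subunit on centred arrays, but 0.35 and 0.29 as deposited, where the median of all genes was 0.38 and 21 members were called higher and 0 lower (0 also unadjusted). As deposited 1710 of all 4398 genes were higher and 45 lower. Of the 44 members tested 28 were large subunit genes. All 5 members called lower than AI in NT alone were among them, RPL19, RPL7A, RPL35, RPL23A and RPL3, the last pair named here after its values were seen. The set depends on the dye. In Cy5 alone RPL35 (-0.31) and RPL3 (-0.41) were also lower in IVF than in AI embryos. In Cy3 alone the NT calls of RPL19 (-0.16), RPL7A (-0.24), RPL35 (-0.12) and RPL3 (-0.31) against AI were lost, and between IVF and AI RPL19 went from -0.31 in Cy5 to 0.24 in Cy3 and RPL7A from -0.26 to 0.22. With both arrays of a sample averaged, the first 4 were also lower in NT than in IVF embryos, at -0.39 ± 0.097 (adjusted p = 0.00206), -0.48 ± 0.12 (0.00229), -0.21 ± 0.069 (0.0203) and -0.35 ± 0.12 (0.028), while RPL3 differed by -0.21 ± 0.10 (0.145). In Cy5 alone the calls of RPL35 (-0.19, adjusted p = 0.124) and RPL23A (-0.25, 0.165) between NT and IVF were lost. In Cy3 alone the first 4 kept theirs. RPL19 ran from -1.26 to -0.56 with a median of -0.95 in AI, from -1.46 to -0.40 with a median of -0.93 in IVF and from -1.68 to -1.01 with a median of -1.28 in NT embryos. On centred arrays the NT group was shifted down while AI and IVF covered nearly the same values. As deposited the RPL19 difference of NT was -0.012 from AI (adjusted p = 0.955 by limma) and -0.010 from IVF embryos (0.968). RPL7A, a protein that binds the large ribosomal RNA, ran from -1.25 to -0.046 with a median of -0.67, from -1.06 to -0.24 with a median of -0.72 and from -1.72 to -0.53 with a median of -1.11 in the same order of groups. RPL35 ran from -2.34 to -1.99 with a median of -2.15, from -2.43 to -2.01 with a median of -2.25 and from -2.80 to -2.14 with a median of -2.50. For both genes the groups overlapped. As deposited the RPL7A difference of NT was -0.087 from AI (adjusted p = 0.72 by limma) and -0.0996 from IVF embryos (0.701). With the 3_ embryos alone the calls of RPL19 (0.0663) and RPL7A (0.093) between NT and IVF were lost, as were their calls against AI.

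Of the 8 members higher in NT than in IVF embryos RPL30 had the smallest p-value. It was higher by 0.81 ± 0.14 (adjusted p = 1.20e-05) with NT values of -1.15 to -0.26 with a median of -0.57, and 15 of 15 NT embryos lay above the IVF mean. RPL22, a protein that also binds other RNAs and is dispensable for translation in many cells, was higher by 0.76 ± 0.18 (0.00104). RPL22 ran from -0.74 to 0.60 with a median of -0.040 in AI, from -2.47 to 0.12 with a median of -1.04 in IVF and from -0.74 to 0.32 with a median of -0.35 in NT embryos, with the IVF group the most spread. RPL37 was higher by 0.52 ± 0.12 (0.00151) with NT values of -1.68 to -0.84 with a median of -1.33, and RPL39 by 0.47 ± 0.15 (0.0171) with NT values of -1.75 to -1.0 with a median of -1.45 and IVF values of -2.48 to -1.19 with a median of -1.96. RPL23 was higher by 0.33 ± 0.11 (0.025), and in the small subunit RPS3A by 0.55 ± 0.14 (0.00314) with NT values of -1.02 to 0.11 with a median of -0.33. In all of these the groups overlapped. The RPL23 call was lost in Cy3 alone (adjusted p = 0.082 by limma) and with the 2_ (0.0935) or the 3_ embryos alone (0.0929). It was also lost in the fit of the compared groups alone. The RPL39 call was lost in Cy3 alone (0.156) and with the 3_ embryos (0.194). That of RPL37 was lost with the 3_ embryos (0.0557) and that of RPS3A with the 2_ embryos (0.056). RPL30 and RPL22 kept theirs in each of these settings. The small subunit genes lower in NT than in IVF were RPS9, at -0.53 ± 0.15 (0.00687), and RPS7, at -0.28 ± 0.10 (0.0456). Both calls were lost as deposited and with the 3_ embryos alone, and that of RPS7 also in Cy5 alone and in the fit of the compared groups alone. RPS7 ran from -1.33 to -0.56 with a median of -0.91 in IVF embryos, and as deposited its difference became 0.10, that of RPL35 0.17, that of RPL23A 0.031 and that of RPL3 0.17. Of the stalk genes neither was called, with -0.096 ± 0.11 for RPLP1 (0.577) and -0.062 ± 0.13 for RPLP2 (0.783).

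**Figure D3:**
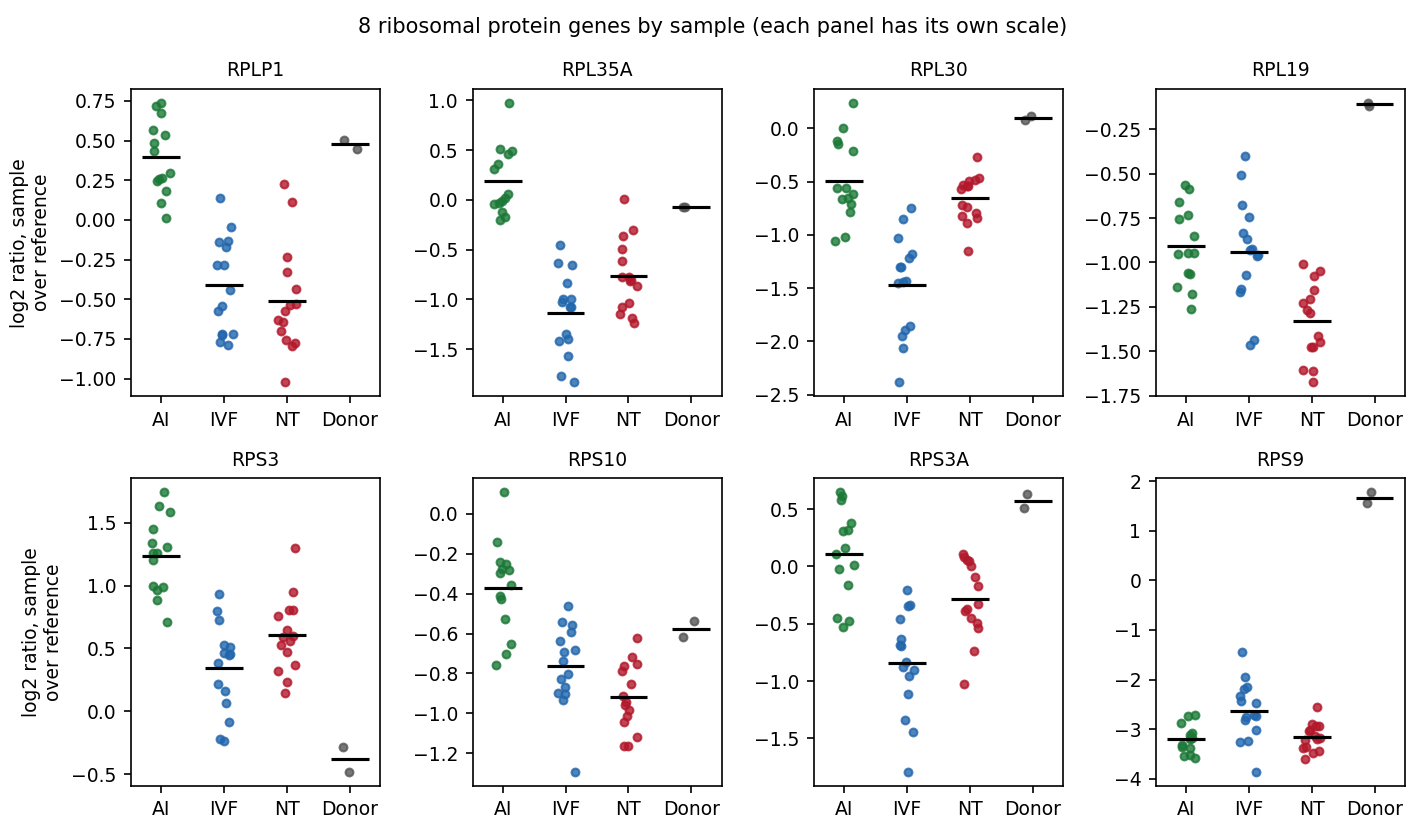
Centred log2 ratio of sample over reference (y axis, a scale for each panel) of 8 ribosomal protein genes in every sample, by group (x axis); bars are group means. RPLP1 and RPS10 were lower in IVF and NT than in AI embryos, RPL30 and RPS3A were lowest in IVF, RPL19 was lowest in NT, and RPS9 lay at 1.55 and 1.77 in the donor cell samples against -3.86 to -1.45 in all embryos. As deposited the RPL19 difference of NT was -0.012 from AI and -0.010 from IVF embryos.

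Donor cells, the somatic cells whose nuclei entered the NT embryos, carried more ribosomal protein transcript relative to the median gene than IVF and NT embryos did. Against AI embryos 37.0% of all genes were called, 20.4% higher and 16.6% lower in AI. There 5 large and 4 small subunit genes were lower in AI, 20.5% of the members, and 1 and 2 were higher, 6.82%. Against IVF embryos 34.3% of all genes were called, 18.5% higher and 15.8% lower in IVF, and 15 large and 7 small subunit genes were lower and 0 and 1 higher (0 large also unadjusted). Against NT embryos 35.4% were called, 20.1% higher and 15.4% lower in NT, and 11 large and 9 small subunit genes were lower and 0 and 1 higher (0 large also unadjusted). The median differences of the large subunit were -0.097 for AI, -0.68 for IVF and -0.42 for NT, and those of the small subunit -0.23, -0.43 and -0.67. The direction for AI turned with the dye: the median over both subunits was -0.11 with both arrays, -0.45 with the sample in Cy5 alone and 0.21 in Cy3 alone. The 3 comparisons share the same 2 donor cell samples, and the counts of members lower in embryos were 31 in Cy5 alone and 8 in Cy3 alone for IVF, and 31 and 5 for NT. Among all genes 803 of 4437 and 537 of 4434 were lower for IVF, and 802 and 507 for NT. Members lying wholly below donor cells were 8 in AI, 19 in IVF and 21 in NT, against 14.4%, 13.8% and 13.7% of all genes, and wholly above them 3, 1 and 1, against 17.2%, 13.8% and 17.6%.

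Averaged over its probes, RPL35, which lies by the peptide exit tunnel, had the largest difference from donor cells of any large subunit gene, with donor values of -0.87 and -0.49 above every embryo. The difference was -1.48 ± 0.14 in AI (adjusted p = 6.09e-12), -1.57 ± 0.14 in IVF (9.22e-13) and -1.78 ± 0.14 in NT embryos (1.58e-14). This rank rests on 1 of its 2 probes, since the other gave -0.49 ± 0.20, -0.82 ± 0.20 and -0.89 ± 0.20, and the AI call was lost with 1 probe per gene. RPL19, a protein that reaches across to the small subunit, stood at -0.12 and -0.10 in donor cells, above all embryos, and differed by -0.80 ± 0.20 in AI (0.00127) and -1.22 ± 0.20 in NT (2.33e-06). RPL32 stood at -0.074 and 0.12 and differed by -0.88 ± 0.24 in AI (0.00253) and -1.18 ± 0.24 in NT (7.28e-05), between embryo ranges of -1.42 to -0.34 with a median of -0.80 in AI and -1.49 to -0.80 with a median of -1.19 in NT. RPL30, at 0.078 and 0.12 in donor cells, and RPL39, at -0.38 and -0.32, were lower in IVF embryos, at -1.57 ± 0.28 (1.13e-05) and -1.54 ± 0.31 (7.56e-05), with no overlap. RPL18 went the other way, at -1.10 in both donor cell samples, and was higher in AI embryos by 0.84 ± 0.28 (0.0125), with AI values of -0.91 to 0.33 with a median of -0.24. RPLP1 stood at 0.45 and 0.51 and RPLP2 at -0.45 and -0.18, and against AI neither stalk gene was called, at -0.084 ± 0.23 (0.828) and 0.39 ± 0.28 (0.293). RPLP1 differed by -0.89 ± 0.23 in IVF (0.00181) and -0.99 ± 0.23 in NT embryos (5.44e-04), and RPLP2 by -0.021 ± 0.27 (0.97) and -0.083 ± 0.27 (0.858). The RPL18 call was lost without donor sample 8 or 9 and as deposited, and the RPL32 call against AI without sample 8 and in Cy3 alone. In Cy3 alone the RPL19 calls in all 3 kinds of embryo and the RPLP1 calls in IVF and NT were also lost, and as deposited the RPLP1 call in NT.

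RPS9 stood apart from every other member. Its donor values were 1.55 and 1.77 while all embryos lay at -1.45 or lower, so that it was 29-fold lower in AI (-4.86 ± 0.31, adjusted p = 5.32e-18), 19.5-fold lower in IVF (-4.29 ± 0.31, 4.43e-16) and 28.2-fold lower in NT embryos (-4.82 ± 0.31, 6.54e-18). The next largest difference of any member from donor cells was -1.78. One probe carried RPS9, and whether its old annotation names the transcript it detects could not be checked here. Without RPS9 the small subunit average of the donor cell samples, relative to AI, was 0.11 in place of 0.40 for sample 8 and 0.024 in place of 0.33 for sample 9. RPS24 stood at 0.050 and 0.23 in donor cells and RPS27 at -0.71 in both, and each was lower in all 3 kinds of embryo. RPS24 differed by -0.67 ± 0.21 in AI (0.00891), -1.16 ± 0.21 in IVF (1.31e-05) and -0.98 ± 0.21 in NT (1.58e-04). The RPS24 call in AI was lost without donor sample 8, in Cy3 alone and with 1 probe per gene. RPS27, a zinc finger protein of the small subunit, differed by -0.81 ± 0.23 (0.00393), -1.16 ± 0.23 (5.01e-05) and -0.91 ± 0.23 (0.00123) in the same order, with AI values of -2.05 to -0.92 with a median of -1.46. The RPS27 calls were lost in Cy3 alone, the NT call as deposited, and the AI call without either donor sample. RPS3 was the member higher in all 3 kinds of embryo, with donor values of -0.48 and -0.28 below every embryo. It differed by 1.62 ± 0.25 in AI (5.20e-07), 0.73 ± 0.24 in IVF (0.0175) and 0.99 ± 0.24 in NT (0.00113). The IVF call was lost without either donor sample, as deposited and in Cy5 alone, and the NT call without sample 9 and in Cy5 alone. RPS14 was higher in AI alone, by 0.79 ± 0.27 (0.0165) against donor values of -1.04 and -1.0, a call lost without either donor sample, as deposited and in Cy5 alone.

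**Figure D4:**
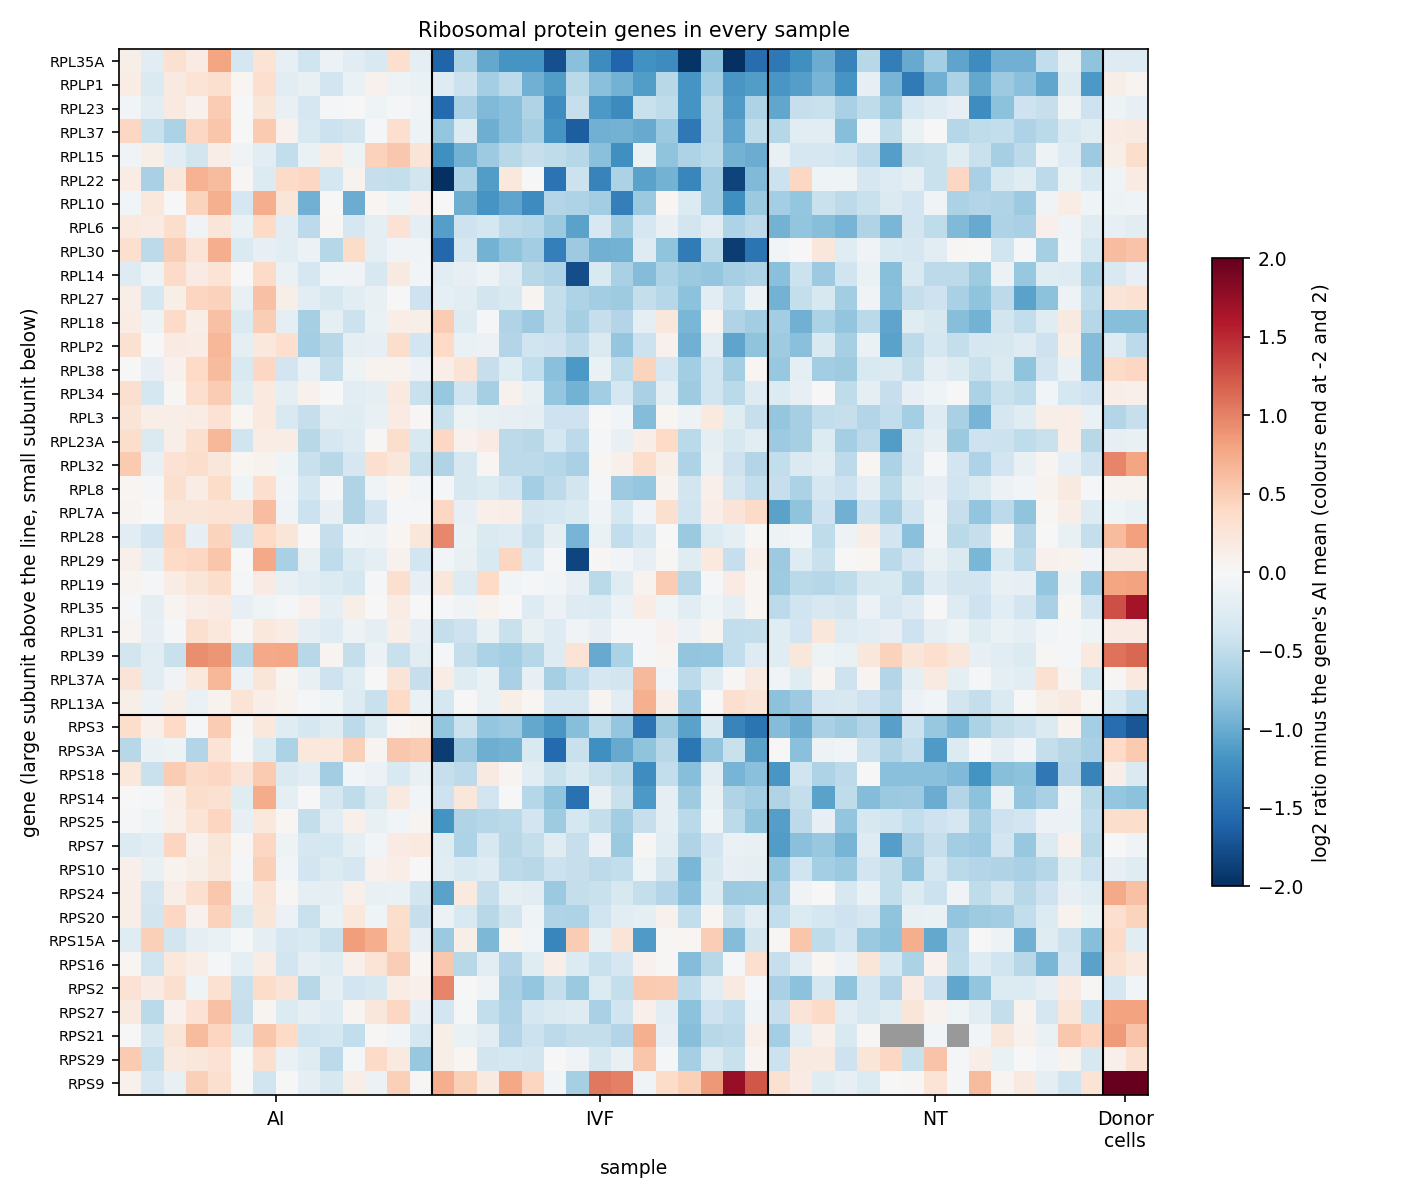
Centred log2 ratio minus the gene's AI mean (colour, blue lower and red higher, ending at -2 and 2) for 44 ribosomal protein genes (rows, large subunit above the line) in 46 samples (columns, by group); grey marks a missing value. Most rows turn blue in IVF and NT columns, where as deposited the NT median was 0.010, and RPS9, RPL35, RPL39, RPL32 and RPL19 are red in both donor columns while RPS3 is blue.

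The members varied less between embryos of one kind than genes in general. The median pooled SD within kinds of embryo was 0.31 for the large and 0.33 for the small subunit, against 0.45 for all genes tested. It was lowest for RPL35 (0.14) and RPS10 (0.20) and highest for RPL22 (0.49) and RPS15A (0.52). Several probes of a gene gave a check within the array, and 10 of the tested genes had 2 probes each. For RPL6 the probes gave -0.59 ± 0.12 and -0.65 ± 0.13 between NT and AI, and for RPS3 by -0.63 ± 0.12 and -0.64 ± 0.13, so that the probes of each gene gave nearly equal differences. The RPL15 probes did not. One gave 0.13 ± 0.11 between NT and AI and 0.066 ± 0.11 between IVF and AI, the other -1.02 ± 0.18 and -1.54 ± 0.18. Against donor cells the RPL15 probes took opposite signs in NT embryos, at 0.94 ± 0.22 and -2.31 ± 0.36, so that the calls of RPL15 rest on 1 of its probes. The RPL35 probes differed in size against donor cells, at -0.49 ± 0.20 (not called) and -2.46 ± 0.18 in AI, -0.82 ± 0.20 and -2.32 ± 0.18 in IVF, and -0.89 ± 0.20 and -2.67 ± 0.18 in NT embryos. Between IVF and AI they took opposite signs, at -0.34 ± 0.10 (called) and 0.15 ± 0.088, and between NT and IVF they gave -0.069 ± 0.098 (not called) and -0.35 ± 0.087, so that the RPL35 call between NT and IVF and its place among members lower in NT alone rest on 1 probe. Those of RPS24 gave -0.72 ± 0.12 (called) and -0.25 ± 0.12 (not called) between IVF and AI. Those of RPS15A differed in sign in IVF against AI, at -0.74 ± 0.13 (called) and 0.44 ± 0.42 (not called). In NT against AI they gave -0.64 ± 0.13 (called) and -0.16 ± 0.40 (not called). Averaged over its probes RPS15A was called in neither comparison, so this lack of a call and its SD of 0.52 belong to an average of unlike probes.

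Genes around the ribosome did not follow one course. RACK1, a scaffold that sits on the small subunit and lies outside the symbol rule, was lower in NT than in AI embryos, at -0.54 ± 0.099 (adjusted p = 3.69e-04) and gave -0.18 ± 0.099 (0.183) in IVF. RPL7L1, a nucleolar relative of RPL7, gave -0.039 ± 0.11 (0.886) in NT and -0.66 ± 0.11 (1.08e-05) in IVF against AI. Of 16 translation factors and other genes of the TOP mRNA class 1 was lower and 1 higher in NT than in AI embryos, the elongation factor EEF1B2 at -0.47 ± 0.14 and the initiation factor EIF4B at 0.64 ± 0.13, with a median of -0.099. In IVF against AI 9 were lower and 1 higher, with a median of -0.45, among them EIF3H at -0.76 ± 0.10, NACA at -0.60 ± 0.11 and EIF3E at -0.75 ± 0.17. Between NT and IVF embryos 8 were higher and 1 lower in NT, with EIF4A2, an RNA helicase of initiation, at 1.29 ± 0.22.

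Of 37 ribosome biogenesis genes 2 were higher, UTP11 at 0.41 ± 0.11 and PES1 at 0.97 ± 0.31, and 0 lower in NT than in AI embryos (5 lower at an unadjusted p below 0.05). In IVF against AI 10 were lower and 3 higher, with GAR1, a protein that takes part in pseudouridylation of ribosomal RNA, at -1.66 ± 0.21 and EBNA1BP2 at -0.64 ± 0.12. Against donor cells most biogenesis genes called were higher in embryos: 16 were higher and 2 lower in AI, 10 and 2 in IVF, and 15 and 1 in NT embryos. NIFK was higher by 2.22 ± 0.22 in AI and 2.18 ± 0.22 in NT, and the nucleolar IMP4 by 2.25 ± 0.29 and 2.36 ± 0.29. Of 8 genes of RNA polymerase I and 5S transcription POLR1H was the 1 called between NT and AI embryos, at 1.22 ± 0.30. Of 15 genes of TOP mRNA control and growth signalling 0 were called between NT and AI (1 higher and 1 lower unadjusted), and LAMTOR2, of the lysosomal platform for mTORC1, was lower in IVF than in AI, at -1.05 ± 0.15. Of 39 mitochondrial ribosomal proteins, which belong to a separate ribosome, 3 were lower and 0 higher (1 unadjusted) in NT than in AI embryos, with a median of -0.13, and MRPS11 was lowest at -0.67 ± 0.15. In IVF against AI 17 were lower and 2 higher, with a median of -0.29, and MRPL27 gave -0.89 ± 0.14. Of those called against donor cells most were higher in embryos, 19 against 2 lower in AI, 8 against 3 in IVF and 16 against 2 in NT. Beside these lists, all genes called were 3.80% higher and 4.27% lower in NT than in AI, and 13.9% and 15.6% in IVF. Between NT and IVF they were 13.9% and 10.3%. Against donor cells they were 20.4% and 16.6% for AI, 18.5% and 15.8% for IVF, and 20.1% and 15.4% for NT. The 8 of 39 higher in IVF than in donor cells are close to that share, as are the 2 of 37 biogenesis genes higher in NT than in AI.

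Set beside all genes, the cytosolic ribosomal proteins had 54.5% of members lower in NT than in AI embryos against 4.27% of all genes, and 63.6% lower in IVF than in AI embryos against 15.6%. The median of the members stood -0.43 from that of all genes in NT and -0.39 in IVF, both relative to AI, a distance that centring by its construction leaves nearly as it is. With the sample in Cy5 alone, where 45 members could be tested, the distances were -0.50 and -0.54, and in Cy3 alone, with 46, -0.33 and -0.26. The NT embryos numbered 2_ gave -0.46 and those numbered 3_ -0.41.

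**Figure D5:**
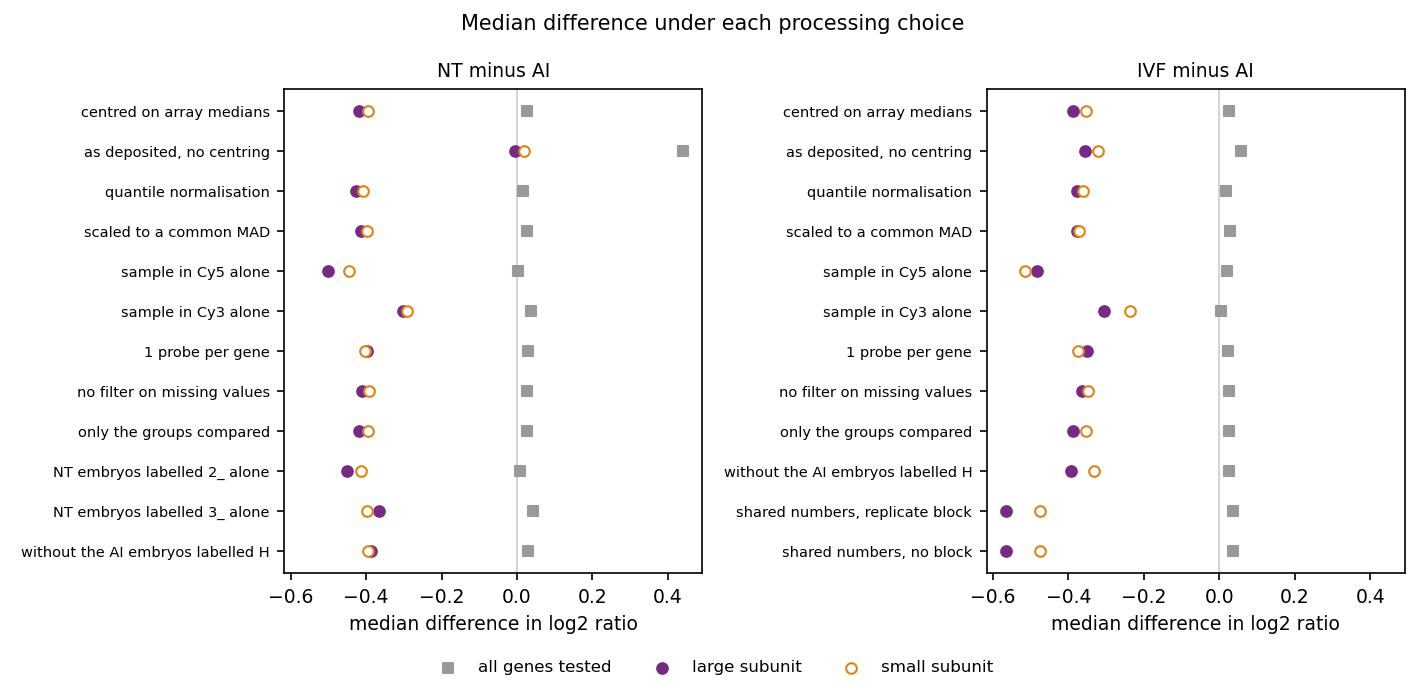
Median difference in log2 ratio (x axis) over the large subunit genes, the small subunit genes and all genes tested, for NT and IVF against AI embryos, under each processing choice (y axis; MAD is the median absolute deviation). Both subunits lie left of all genes in every line; as deposited, without centring, all 3 medians of NT minus AI move right together, to -0.0048, 0.018 and 0.44.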

How the data were processed

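Single blastocysts and NT donor cells were compared with a common reference on 2-colour cDNA arrays. The deposited table holds a log2 ratio per spot; background correction, normalisation, scanner and software are not given in the sources used here. Direction (Cy5 over Cy3) was inferred. Cells at the fill value of 16.61 were set missing, and 4.39% of cells were empty. With R 4.3.3 and limma 3.58.1, the sign of arrays with the sample in Cy3 was changed, each array was centred on its median, and duplicate spots (median r 0.793), the arrays of a sample and the probes of a gene were averaged. Of 8208 probes 5598 had 1 gene symbol in the platform annotation, 95 several and 2515 none. A gene was tested if 50% or more of the AI, the IVF and the NT embryos had a value, in one fit of the 4 groups (lmFit, eBayes, Benjamini-Hochberg over 4398 genes, 6 comparisons). All 46 members matched RefSeq by Entrez identifier with unchanged symbols. No label says that embryos came from separate flushings, dams or cultures, so p-values measure the spread between these samples. Arrays give no read depth; their number limits the precision, most of all with 2 donor cell samples. Members and gene lists were chosen with earlier results of these data known. Named are, per comparison and subunit, the called members of smallest adjusted p (up to 5 in the commoner and 3 in the other direction; up to 3 each way against donor cells), the stalk genes, the members of extreme spread, and up to 4 genes of each other list. The script was tested on simulated data. Alternatives were values as deposited, quantile and spread scaling, each dye alone, 1 probe per gene, no filter, fits of the compared groups alone, subsets of embryos, each donor sample left out, and a block.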

Additional observations from a re-analysis of the deposited data

How the results depend on the processing

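Counts of called members moved with scaling, dye, the NT subset and the donor sample, and the cause was not tested. With arrays as deposited, counts were 2 lower and 2 higher for NT against AI, 0 lower and 21 higher for NT against IVF (0 lower unadjusted), 15 lower for IVF against AI, 1 higher for AI and 0 for IVF against donor cells (0 unadjusted), and 5 lower for NT against donor cells. The counts for all 4398 genes, in the same order, were 19 and 1978, 45 and 1710, 354, 472 and 407, and 374. Quantile normalisation gave 0 higher for IVF against AI (1 unadjusted), and 5 and 3 higher for AI and IVF against donor cells. For all genes these counts were 584, 980 and 948. Cy5 alone gave 3 lower for NT against IVF, 2 higher for IVF against AI and 31 lower for NT against donor cells. For all 4437 genes these counts were 312, 560 and 802. Cy3 alone gave 12 lower for NT against AI, 4 higher for NT against IVF, 13 lower and 0 higher for IVF against AI (3 unadjusted), and against donor cells 3 lower and 5 higher for AI, 8 and 4 for IVF, 5 and 2 for NT. The counts for all 4434 genes were 82, 519, and 544 and 579, then 514 and 977, 537 and 1037, and 507 and 1059. With 1 probe per gene 2 were higher in IVF and 2 in NT than in donor cells, against 845 and 905 of all 4398 genes. NT embryos numbered 2_ gave 4 higher against IVF, where 403 of all genes were higher. Those numbered 3_ gave 9 lower against AI, and 1 lower and 4 higher against IVF. For all genes these counts with 3_ embryos were 91, and 250 and 446. The median of the large minus that of the small subunit was -0.023 (NT) and -0.035 (IVF) against AI, 0.062 for NT against IVF, and 0.13, -0.25 and 0.25 for AI, IVF and NT against donor cells. It moved to -0.014 (AI) and 0.0073 (NT) against donor cells in Cy5 alone, to 0.26, -0.060 and 0.029 for AI, IVF and NT in Cy3 alone, and to -0.035 for NT against IVF with 2_ embryos. Between kinds of embryo its sign also turned for IVF against AI in Cy5 alone (0.029) and with 1 probe per gene (0.023), for NT against AI with 1 probe (0.0045), 3_ embryos (0.031) and without H embryos (0.0069), and for NT against IVF in Cy5 alone (-0.0087) and with 1 probe (-0.021). Without donor sample 8 or 9 it ran from 0.11 to 0.23, -0.27 to -0.030 and 0.16 to 0.28, with 4 to 5 lower and 1 higher for AI, 15 lower and 0 higher for IVF (1 and 0 unadjusted), and 9 to 11 lower and 0 to 1 higher for NT. Signs turned as deposited for NT against IVF in RPL35 (0.17), RPS7 (0.10), RPLP1 (0.29), RPLP2 (0.32), RPL23A (0.031) and RPL3 (0.17), and for NT against donor cells in RPLP2 (0.13). RPLP2 against donor cells turned for IVF under quantile normalisation (0.048), in Cy3 alone (0.47) and without sample 8 (0.11, against -0.16 without 9), and for NT in Cy3 alone (0.38), with 3_ embryos (0.027) and without sample 8 (0.051, against -0.22 without 9). RPLP1 turned in Cy3 alone for NT against IVF (0.018) and AI against donor cells (0.25), and RPLP2 with 3_ embryos for NT against IVF (0.048). The 7 embryo numbers that AI and IVF share did not pair embryos (correlations -0.082 to 0.12, 1 of 7 over 0.1, 1 of 7 best with its own number). With the number as a replicate block 12 members were lower and 0 higher (0 unadjusted), and 19 and 0 (0 unadjusted) without the block in a fit added after seeing the data. For all 4415 genes 238 were lower and 220 higher with the block, and 376 and 314 without it.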
